A study of Caenorhabditis elegans with 2 samples.

Results

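The 9 genes described here were the C. elegans HSP70 family members F44E5.4, F44E5.5, hsp-1, hsp-70, hsp-3, hsp-4, hsp-6 and hsp-110, with the related gene stc-1, out of 19973 protein-coding genes in the annotation. They were measured by chromatin immunoprecipitation sequencing (ChIP-seq) of the protein encoded by Y75B8A.6. The animals, of strain RW12275, carried a CRISPR insertion on chromosome III that fuses Y75B8A.6 to TY1, EGFP and 3xFLAG tags, and an antibody against GFP was used for the precipitation. Both libraries were biological replicates of this single group, whole L4 larvae at 48 h that had been synchronised by bleaching and starvation at the L1 stage. There was no second condition, no precipitation from an untagged strain was analysed here, and signal from whole animals cannot be assigned to a tissue. The genes were selected by name, and the locus that leads them, the space between F44E5.4 and F44E5.5, was chosen for the measured strength of its peak. Its rank is therefore a description, as are the counts below.

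HSP70 chaperones bind exposed hydrophobic stretches of unfolded proteins and release them in a cycle driven by ATP. J-domain proteins start the hydrolysis of the ATP, and nucleotide exchange factors, among them the HSP110 proteins, reset the cycle. Cells keep a constitutive cytosolic HSP70, organelle forms in the endoplasmic reticulum and mitochondria, and heat-inducible copies that are nearly silent without stress. The heat-inducible copies are classic targets of heat shock factor (HSF-1 in C. elegans), which binds as a trimer to arrays of alternating GAA and TTC units spaced 5 bp apart.

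The sequences that carry the main result are the peak between F44E5.4 and F44E5.5 and the rest of that interval on the F44E5.5 side, because together they hold nearly all the arrays of such units at the locus. Those at hsp-1, hsp-110 and hsp-3 are shown for contrast, since these peaks held a single pair, a short array and no array. All come from the RefSeq copy of WBcel235, the assembly known as ce11, on the plus strand from 5′ to 3′. Capitals mark GAA and TTC units that alternate 5 bp apart. The first is the whole peak of the main list at chrII:11759365-11759517, and the second follows it directly at chrII:11759518-11759661. That at hsp-1 is 50 bp on each side of the summit at chrIV:17278553-17278653. The hsp-110 stretch at chrIII:8447126-8447266 is the part of the peak from just before the array to past the summit, and the hsp-3 stretch at chrX:6092125-6092254 is the part of the peak upstream of the gene.
F44E5.4/F44E5.5: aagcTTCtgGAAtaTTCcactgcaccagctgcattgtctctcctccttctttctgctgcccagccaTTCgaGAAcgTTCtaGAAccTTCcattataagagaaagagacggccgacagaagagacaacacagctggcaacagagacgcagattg
F44E5.5 proximal: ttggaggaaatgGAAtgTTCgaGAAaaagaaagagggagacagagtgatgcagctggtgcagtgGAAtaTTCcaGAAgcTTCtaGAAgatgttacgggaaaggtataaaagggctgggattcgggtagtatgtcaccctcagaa
hsp-1: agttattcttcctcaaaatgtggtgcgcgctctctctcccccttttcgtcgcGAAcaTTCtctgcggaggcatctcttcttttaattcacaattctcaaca
hsp-110: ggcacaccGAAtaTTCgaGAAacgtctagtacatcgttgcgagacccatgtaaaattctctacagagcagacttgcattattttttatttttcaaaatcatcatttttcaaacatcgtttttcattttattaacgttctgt
hsp-3 upstream part: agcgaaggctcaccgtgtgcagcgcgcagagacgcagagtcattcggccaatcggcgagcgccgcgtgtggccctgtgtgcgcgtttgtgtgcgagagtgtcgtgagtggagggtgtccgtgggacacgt

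A gene was counted as bound when the summit of a peak, its highest point, lay from 1000 bp upstream to 300 bp downstream of any of its annotated starts. In the main list, the larger of the series' thresholded lists, 5 of the 9 genes were bound, against 466 of all protein-coding genes (2.33%). These were F44E5.4, F44E5.5, hsp-1, hsp-3 and hsp-110, and hsp-70, hsp-4, hsp-6 and stc-1 had no summit. In the conservative list 3 of the 9 were bound, F44E5.4, F44E5.5 and hsp-1, against 1.97% of all genes. The list of replicate 1 alone held summits at these 3 and at hsp-3, against 0.891% of all genes, and the list of replicate 2 alone held summits at these 3, against 0.946%. The genes were picked with these peaks known, so nothing is read from the excess over the background.

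The lists come in pairs. A ranked list holds every candidate peak, 103934 for the list behind the main one, 75570 for replicate 1 and 56066 for replicate 2, and a thresholded list keeps 933, 343 and 345 of these. Each peak has a signal, the value given by the authors' peak caller, whose scale is not stated and which is compared only within a list. It also has a score of at most 1000 that is derived from the irreproducible discovery rate (IDR). The IDR is low, and the score high, where a peak ranks consistently high in paired lists. The lowest score in any thresholded list was 830. Candidates of these genes that are in both the main and the conservative ranked list have the same interval and signal there and can differ in score, so these lists are not independent. Read depth is unknown, because the lists give no read totals.

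**Figure D1:**
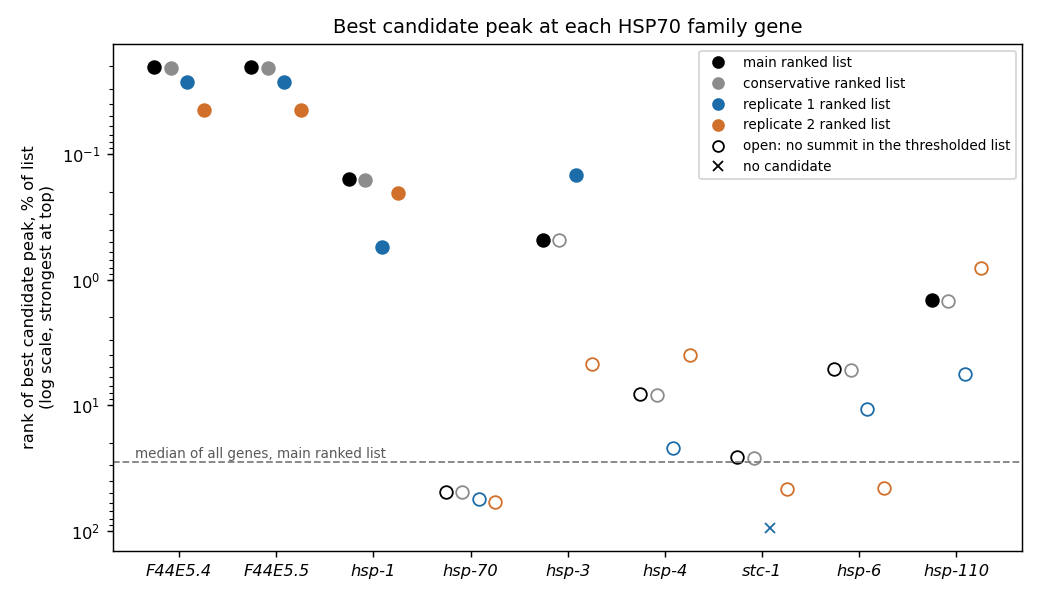
Rank by signal of the best candidate peak in each gene's window, as a percentage of the list on a log axis with the strongest at the top, in the main, conservative, replicate 1 and replicate 2 ranked lists. Filled points mark genes with a summit in the matching thresholded list, the cross marks stc-1 with no candidate in replicate 1, and the dashed line is the median of all genes in the main ranked list, 28.3%; F44E5.4 and F44E5.5 share 1 peak and stand at 0.0202% there, while hsp-70 lies below the line in every list.

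The shared peak of F44E5.4 and F44E5.5, a pair of heat-inducible HSP70 genes transcribed away from each other, was among the strongest in every list. F44E5.4 (WBGene00009691) lies at chrII:11757107-11759311 on the minus strand and F44E5.5 (WBGene00009692) at chrII:11759662-11761861 on the plus strand. In the main list their peak had a signal of 246 and a score of 1000, and ranked 3 of 933. It had a signal of 123 in replicate 1, where it ranked 4 of 343, and of 121 in replicate 2, where it ranked 4 of 345. The rank was thus nearly the same in both biological replicates, and the score was 1000 in each. The peaks on either side of it in the main list were one with no protein-coding start in range, at 266, and that of mog-4 at 242. The strongest, at 302, was at the ribosomal protein gene rpl-3.

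In the ranked lists the F44E5 peak stood at rank 21 of 103934, at rank 20 of 75570 in replicate 1 and at rank 25 of 56066 in replicate 2. It was the only candidate peak in the windows of both genes in each of the 8 lists. Of the 20 candidates with a higher signal in the main ranked list, 2 were in the main list and 18 were not. In that list 1053 candidates had a score of 830 or more, of which 933 were in the main list and 120 were left out. The thresholded lists were therefore not formed by score alone, and the sources used here do not say what else was applied.

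The peak lay inside the 350 bp between the 2 genes and touched neither. Its summit was 158 bp upstream of the F44E5.4 start and 193 bp upstream of the F44E5.5 start, 17 bp to the F44E5.4 side of the midpoint. The interval was 153 bp in the main list and covered 43.7% of the space between the genes. In replicate 1 it was 172 bp with a summit 26 bp nearer to F44E5.4, and in replicate 2 it was 57 bp with its summit at the same base as in the main list. These are narrow for these lists, in which the commonest widths were 256 bp in the main list, 350 bp in replicate 1 and 224 bp in replicate 2. Only 19 of the 933 main-list peaks were narrower than 256 bp, and 17 of them were among the 25 strongest, so the narrow interval went with high signal and was not particular to this locus.

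**Figure D2:**
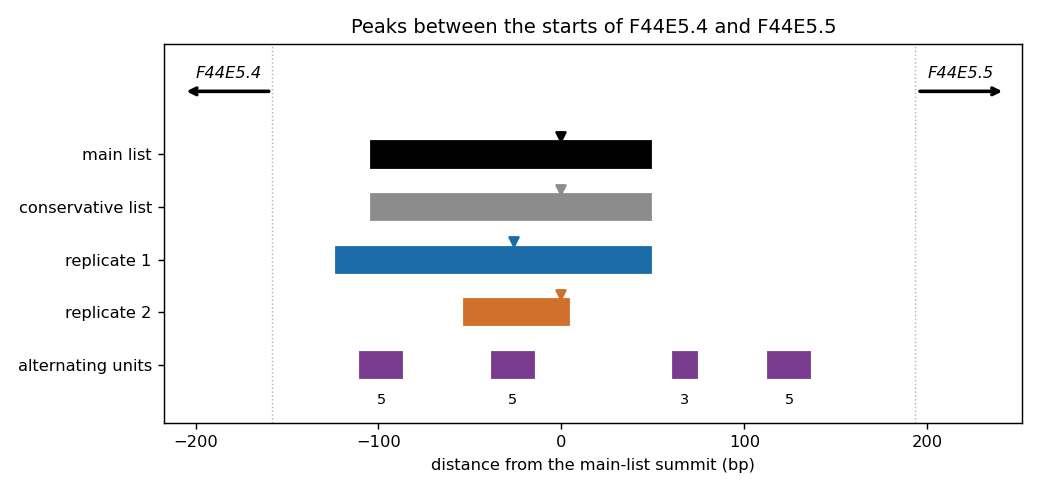
Map of the 350 bp between the starts of F44E5.4 and F44E5.5, with distance from the main-list summit in bp on the x axis. Bars are the deposited peak intervals, triangles their summits, dotted lines the gene starts and purple blocks the arrays of alternating units with the number of units below; all peaks cover the array of 5 units next to the summit and none reaches the 2 arrays on the F44E5.5 side.

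The space between the genes held 4 arrays of at least 3 alternating units. From F44E5.4 to F44E5.5 these were 5 units at chrII:11759359-11759381, 5 units at chrII:11759431-11759453, 3 units at chrII:11759530-11759542 and 5 units at chrII:11759582-11759604. The second array was centred 27 bp from the main-list summit and lay wholly inside the 57 bp interval of replicate 2, and the summit of replicate 1 fell within it. Part of the first array was in the main-list peak. The 2 arrays on the F44E5.5 side were under no peak and no candidate peak in any list, although the last of them has as many units as those under the peak. The summits thus lay on the F44E5.4 side of the midpoint, while the arrays were spread over both sides. The main-list peak itself crossed the midpoint, and signal outside the deposited intervals was not seen. Sequence shared between the 2 sides, described below, may affect where reads were placed, and its part in this was not tested.

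Counted as pairs, the motifs GAANNTTC and TTCNNGAA, each of which reads the same on both strands, matched 6 times in the 153 bp peak, overlapping matches included. A pair is common, since 27.1% of all genes had one in the 250 bp upstream of the start. An array of 3 or more units was found there at 1.63% of genes, and one of 5 or more at 9 of 19973 genes (0.0451%). Of those 9 genes, 2 were bound in the main list, against 2.33% of all genes, and these were F44E5.4 and F44E5.5 themselves. They share 1 peak that was chosen for its strength, so this count cannot show a link between arrays and binding. Of the 4 genes with 6 or more units in the same 250 bp, 0 were bound. Of the 933 main-list peaks, 13.4% had at least a pair within 75 bp of the summit, 23 (2.47%) had 3 or more units and 12 (1.29%) had 5 or more. These shares are for a window of another size, wherever the peak lies, and are not comparable with those for genes. Of the 12 peaks, 11 shared sequence with one another, as described at the end. A match is a run of letters, and no binding of HSF-1 was measured here.

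**Figure D3:**
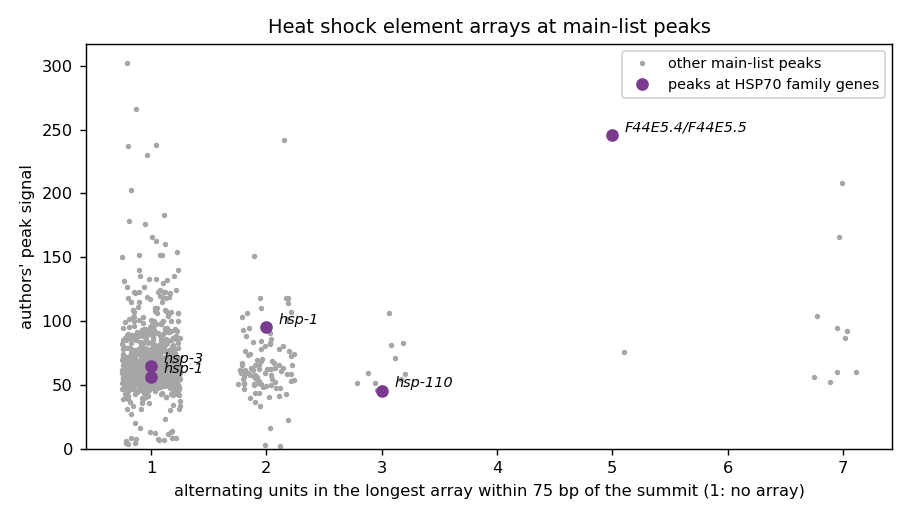
Signal of each of the 933 main-list peaks against the number of alternating units in the longest array within 75 bp of its summit, where 1 means no array; other peaks are spread sideways for legibility. The F44E5.4/F44E5.5 peak has 5 units and a signal of 246, hsp-110 has 3 and 45.6, the upstream hsp-1 peak 2 and 95.2, and hsp-3 and the downstream hsp-1 peak have no array.

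The 2 genes are near copies of each other. Their coding sequences were identical over all 1935 bp, whereas that of F44E5.4 aligned to hsp-70 with 80.5% identity, to hsp-1 with 67.4% and to hsp-110 with 51%. The likeness ran into the space between them as an inverted repeat. The first 60 bp upstream of each start matched at 49 of 50 aligned bases (98.0%), the first 100 bp at 87 of 90 (96.7%) and the first 150 bp at 120 of 135 (88.9%). In both arms a TATAAA lay close to the start, its far base 31 bp upstream of F44E5.4 and 41 bp upstream of F44E5.5. This motif was found on either strand within 250 bp upstream at 35.2% of all genes.

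A repeat matters for reads that must be placed at a single position. Of the runs of 30 bases in the peak, 119 of 124 (96.0%) occur once in the genome, on either strand, and all 104 runs of 50 bases do. Over the whole space between the genes the unique share was lower, 255 of 321 runs of 30 bases (79.4%) and 296 of 301 runs of 50 bases (98.3%). In the coding sequence of either gene only 25 of 1906 runs of 30 bases (1.31%) were unique, against 99.8% in hsp-70 and 95.7% in hsp-1. Neither gene body held a candidate peak in the main ranked list, while the other 7 members held between 3 and 6 each. Among all genes of 2000 to 2500 bp the median was 3 candidates, and 350 of 2172 (16%) had none. How the authors treated reads with more than 1 position was not found in the sources, and its part in these counts was not tested.

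By rank over the 4 ranked lists, the genes with the pattern most like that of F44E5.4 and F44E5.5 were mog-4, tasp-1, K01G5.10, cdc-48.1 and rpa-2, of 8472 genes compared. Likeness was the sum of absolute differences in log10 rank over the lists, and was 0.14 for mog-4, 0.26 for tasp-1 and K01G5.10, 0.28 for cdc-48.1 and 0.65 for rpa-2. The peak of mog-4 ranked 22 in the main ranked list, 19 in replicate 1 and 30 in replicate 2. That shared by tasp-1 and K01G5.10 ranked 26, 21 and 28, and that of cdc-48.1 ranked 24, 27 and 23. These are peaks of close to equal rank, and the measure says nothing of what the genes do.

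The gene hsp-1 encodes the constitutive cytosolic HSP70 (WBGene00002005, chrIV:17278959-17281330, plus strand) and had 2 main-list peaks. The stronger, at chrIV:17278475-17278730, had its summit 356 bp upstream of the start in intergenic sequence, with a signal of 95.2, a score of 1000 and rank 104 of 933. Its signal was 39.6 in replicate 1, where it ranked 260 of 343 with a score of 868, and 55.1 in replicate 2, where it ranked 65 of 345 with a score of 1000. The summit was at the same base in both replicates and in the main list. Replicate 1 was nearer the threshold of 830 and replicate 2 well past it. The nearest noncoding gene, the ncRNA F26D10.23, started 190 bp from the summit. A single pair of units began 2 bp from this summit. Arrays of 3 units were also found in the window, centred 897 bp and 138 bp upstream of the start, and neither lay in a main-list peak.

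The second hsp-1 peak, at chrIV:17278992-17279247, had its summit 161 bp inside the gene in a coding exon. It had a signal of 56.2 and ranked 618 of 933. In replicate 1 the candidate over it had a signal of 19.6 and a score of 666 and was not in the thresholded list, and its summit was 111 bp inside the gene. Replicate 2 had a peak there of signal 39.1 and score 950, ranked 228 of 345, with its summit 219 bp inside the gene in an intron. In the conservative ranked list its score was 624, so only the upstream peak was in the conservative list. The downstream peak thus rested on replicate 2, and its summit differed by 108 bp between the replicates.

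The heat-inducible hsp-70 (WBGene00002026), which among the members is closest in coding sequence to the F44E5 pair, had no peak in any thresholded list. It lies at chrI:9320325-9322519 on the minus strand, and its upstream window lies within an intron of uggt-2. Its best candidate had a signal of 16.9 and a score of 136 in the main ranked list and ranked 51278 of 103934. The best candidates in the replicates had signals of 9.93 in replicate 1 and 10.4 in replicate 2, and ranked 42544 of 75570 and 32921 of 56066. The candidate in the main ranked list was thus near the median signal of that list, 16.8, and those of the replicates were below the medians of theirs, 10.93 in replicate 1 and 11.38 in replicate 2. The promoter of hsp-70 held an array of 3 alternating units centred 67 bp upstream of the start, with no candidate of the main ranked list over it. The replicate 1 candidate of signal 9.93, at a score of 75 and with its summit 58 bp upstream, did cover this array. The TATAAA of hsp-70 was 45 bp upstream. An array near the start was therefore present at hsp-70, and no thresholded peak was. The array had 3 units, against 5 in the arrays nearest the starts of F44E5.4 and F44E5.5, so the promoters are not alike in this.

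**Figure D4:**
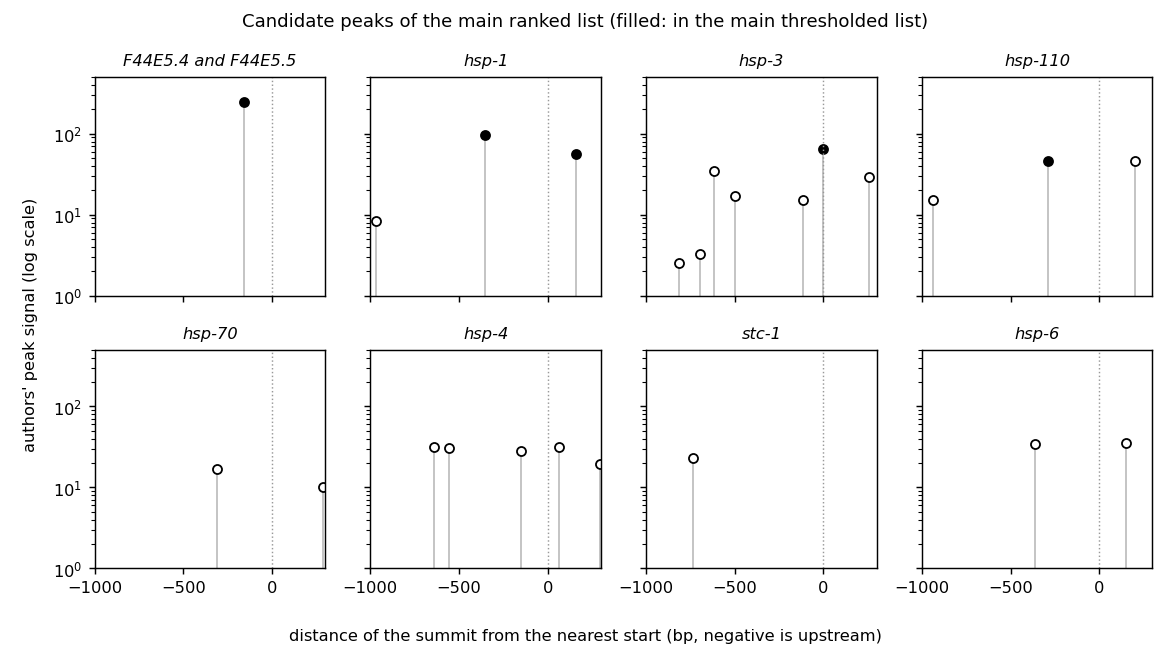
Candidate peaks of the main ranked list in the window of each gene, with distance of the summit from the nearest start in bp on the x axis and signal on a log y axis; the first panel gives the shared peak by its distance from F44E5.4. Filled points are in the main list: 1 peak at 246 for F44E5.4 and F44E5.5, 2 for hsp-1 at 95.2 and 56.2, 1 for hsp-3 at 64.6 and 1 for hsp-110 at 45.6, where an open point of 46.6 stands higher.

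In the endoplasmic reticulum the HSP70 proteins are HSP-3 and HSP-4, both homologues of mammalian BiP, which hold nascent secretory proteins and restrain the sensors of the unfolded protein response. They differed here although their coding sequences were 77.5% identical. For hsp-3 (WBGene00002007, chrX:6089028-6092124, minus strand, 3 annotated starts) the main-list peak at chrX:6091999-6092254 had its summit 3 bp upstream of a start, with a signal of 64.6, a score of 1000 and rank 408 of 933. In replicate 1 it had a signal of 59.7 and a score of 1000 and ranked 67 of 343, with its summit 11 bp upstream. In replicate 2 the strongest candidate that overlapped it had a signal of 22.2 and a score of 161, ranked 2652 of 56066, and had its summit in the 5′ UTR. Another replicate 2 candidate over the peak, with its summit 69 bp upstream, had a signal of 11.1 and a score of 63 and ranked 29492. The hsp-3 peak was therefore high in 1 replicate and not in the other, and with a score of 170 in the conservative ranked list it was absent from the conservative list.

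The GC content of the hsp-3 peak was 62.1%, and only 7 of the 933 main-list peaks had a higher one. The median of the list was 42.6%, and the peaks of F44E5.4 and F44E5.5 at 49.0%, hsp-1 at 35.5% upstream and 43.8% downstream, and hsp-110 at 33.2% lay nearer to it. The part of GC content in the difference between the replicates was not tested.

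For hsp-4 (WBGene00002008, chrII:7350112-7352645, minus strand, 3 annotated starts), which is strongly induced by stress of the endoplasmic reticulum, no thresholded list held a peak. The window held 5 candidates in the main ranked list, the best with a signal of 31.8, a score of 241 and rank 8396 of 103934, 62 bp inside the gene in the 5′ UTR. In replicate 1 the best candidate had a signal of 16.3 and ranked 16444 of 75570. In replicate 2 the best had a signal of 23 and a score of 416 and ranked 2240 of 56066, at a different place, 598 bp upstream. The replicates did not share a best position.

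The gene stc-1 (WBGene00006059, chrII:8563709-8566139, minus strand) is related to mammalian HSPA13 (STCH), an HSP70-like protein that lacks the peptide-binding part. Its candidates were weak. In the main ranked list it had 1 candidate, 733 bp upstream, with a signal of 23, a score of 221 and rank 26922 of 103934. There was none in replicate 1, and in replicate 2 there was 1 with a signal of 11.8 at rank 26169 of 56066. The letters TGACGTG, the core of elements bound by ATF6 and XBP1 in mammals, were found on either strand within 250 bp upstream of hsp-3, hsp-4 and stc-1 and of none of the other 6 genes. Their far base was at -132 bp from the nearest hsp-3 start, at -83 bp for hsp-4 and at -82 bp for stc-1, and 2.39% of all genes had a match. The match at hsp-3 straddled the edge of the main-list peak, and those at hsp-4 and stc-1 were under no main-list peak.

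The mitochondrial HSP70, encoded by hsp-6 (WBGene00002010, chrV:4824124-4826760, minus strand), drives protein import into the matrix and is a common reporter of the mitochondrial unfolded protein response. No thresholded list held a peak there. The 2 candidates in the main ranked list had nearly equal signals, 35.2 at 150 bp inside the gene with a score of 122 and 34.8 at 364 bp upstream with a score of 187. The better of them ranked 5393 of 103934. In replicate 1 the best candidate had a signal of 19.9 and ranked 8103 of 75570, and in replicate 2 the only one had a signal of 11.9 and ranked 25564 of 56066. An array of 3 units centred 301 bp upstream was under the upstream candidate.

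HSP110 proteins act as nucleotide exchange factors of HSP70 and hold unfolded chains. For hsp-110 (WBGene00016250, chrIII:8443910-8446909, minus strand) the peak at chrIII:8447068-8447323 was the weakest of the 5 and nearest the threshold. It had a signal of 45.6, ranked 860 of 933 and had a score of 848, for an IDR of 0.00904. Its summit was 287 bp upstream of hsp-110 and only 157 bp upstream of rpn-3, which encodes a subunit of the proteasome regulatory particle and is transcribed the other way. It was in neither replicate's thresholded list. In replicate 1 the strongest overlapping candidate had a signal of 23.1 and a score of 164, but its summit was 10 bp upstream of hsp-110. The replicate 1 candidate with its summit 258 bp upstream had a signal of 7.96 and a score of 286 and ranked 52030 of 75570. In replicate 2 the strongest had a signal of 30.3 and a score of 32, with its summit 263 bp upstream. The peak held an array of 3 units centred 56 bp from its summit. A further array of 3 units, centred 109 bp upstream of hsp-110, had no candidate of the main ranked list over it, and in replicate 1 both candidates of the window spanned it, with signals of 23.1 and 7.96.

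Another hsp-110 candidate, 199 bp inside the gene in a coding exon, fell short of the lowest kept score of 830. Its signal in the main ranked list was 46.6, slightly above that of the listed peak, and its score was 472, against 848 for the listed peak. In the conservative ranked list the order of the scores was the other way, 801 for the candidate inside the gene and 73 for the upstream peak. In replicate 2 the candidate inside the gene had a signal of 35.3 and ranked 449 of 56066. These are the values on both sides of the threshold. The position inside the gene was in no thresholded list, and the conservative list held neither.

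Over all 9 genes, the median rank of the best candidate was at 1.44% of the main ranked list, 1.47% of the conservative ranked list, 3.12% of the replicate 1 list with stc-1 left out for want of a candidate, and 4.0% of the replicate 2 list. The medians for all genes with a candidate were 28.3%, 27.7%, 28.9% and 36.7% of those lists. F44E5.4 and F44E5.5 enter the members' medians as 2 genes although they share 1 peak, which was chosen for its strength. The members were picked with these peaks known, so nothing is read from the difference between the medians. In the main ranked list 15558 of 19973 genes (77.9%) had a candidate in their window, so that the presence of one carries little information. The members ranged from 0.0202% for the F44E5 pair to 49.3% for hsp-70.

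Of the 5 bound genes, F44E5.4, F44E5.5 and hsp-1 had a best main-list peak that overlapped a thresholded peak in both replicates, hsp-3 in replicate 1 alone and hsp-110 in neither. Of all 933 main-list peaks, 158 (16.9%) overlapped a thresholded peak in both replicates and 486 (52.1%) in neither. With 2 of the 3 genes on 1 peak, this is agreement at 2 places in the genome. The start nearest to the summit was that of F44E5.4, hsp-1 or hsp-3 for their peaks, whereas the F44E5.5 summit was nearer to F44E5.4 and that of hsp-110 nearer to rpn-3.

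Other chaperone and stress genes were taken from 6 lists of 43 genes. In the main list 7 of the 43 (16.3%) were bound, against the 2.33% of all genes, and in the list of either replicate alone 4 were. These lists too were drawn up with the peaks known, so the share is a description. Of the other HSP70 superfamily genes 0 of 3 were bound, and the best candidate, at T14G8.3, ranked 15391 of 103934. Of 6 further HSP70 co-chaperones 1 was bound, bag-1, a nucleotide exchange factor, with a signal of 80.9 and rank 199 of 933, 178 bp upstream. It was in the lists of both replicates. A second, unc-23, named after its values were seen, was bound in the conservative list and in replicate 1 and not in the main list. Its best candidate had a signal of 55.7 in both ranked lists of the series, with a score of 1000 in the conservative one and 116 in the main one. Of 7 genes for HSP90 and its partners 1 was bound, hsp-90, with a signal of 82.5 and rank 187, in the list of replicate 1 and not of replicate 2. Its summit was 363 bp upstream and was shared with C47E8.4.

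Both genes of the mitochondrial chaperonin, hsp-60 and Y22D7AL.10 (its co-chaperonin), were bound by a single summit between them with a signal of 76.3 and rank 246, in replicate 2 and not in replicate 1. As between F44E5.4 and F44E5.5, 1 summit thus lay in the windows of 2 chaperone genes. Of 14 small heat shock protein genes 1 was bound, a gene named hsp-16.1 (WBGene00002017), with a signal of 37 and rank 898. That summit was 957 bp upstream and in no other thresholded list. Of 11 stress regulators 2 were bound, xbp-1, the transcription factor of the endoplasmic reticulum stress response, with a signal of 62.4 and rank 456, and ubl-5, a factor of the mitochondrial one, with a signal of 54.9 and rank 658. By single replicates, xbp-1 was bound in replicate 1 and not in replicate 2, and ubl-5 in replicate 2 and not in replicate 1. The heat shock factor gene hsf-1 had no main-list summit, and its best candidate had a signal of 45 and a score of 499 and ranked 1763 of 103934.

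**Figure D5:**
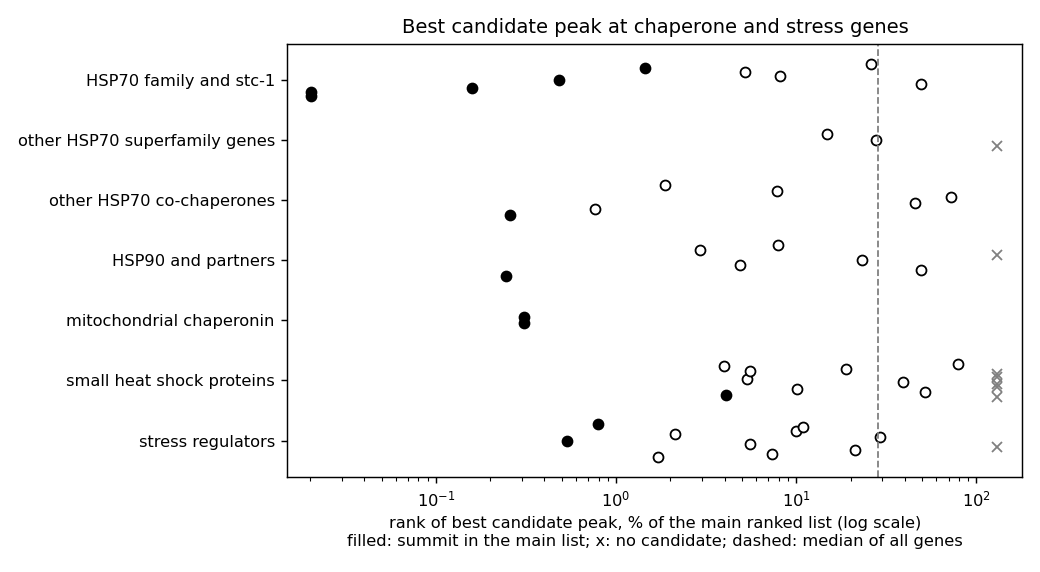
Rank of the best candidate peak as a percentage of the main ranked list on a log x axis, for the 9 HSP70 family genes in the top line and for the genes of the 6 other lists below. Filled points have a main-list summit, crosses at the right edge have no candidate, and the dashed line is the median of all genes at 28.3%; the F44E5 pair at 0.0202% stands left of every other gene shown.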

How the data were processed

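Peaks of 2 biological replicate ChIP-seq libraries, from 1 group, were analysed in 8 lists that the authors deposited, a thresholded and a ranked one for each replicate and 4 for the series. Sonication gave fragments of 200 to 800 bp and the build is ce11, per the labels. The aligner, the peak caller and the handling of multiply placed reads were not given in the sources used here. Alignments and a common input file stand behind all lists, per the deposited descriptions, with a further file of unstated role behind those that are thresholded. Signal values are those deposited by the authors, from their peak caller on an unstated scale, and was used only within a list. The score in the deposited lists follows the global IDR, and the −log10 of the global IDR, also deposited by the authors in the ranked lists, was used to state an IDR.

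A summit was given to every gene with a start in range, using the Ensembl release 115 annotation of WBcel235. Coordinates are 1-based. Ranks are by signal within a list. Coding sequences and upstream arms were aligned globally in Biopython (match 1, mismatch -1, gap opening -3, gap extension -0.5), and percent identity is over the longer coding sequence or, for the arms, over the aligned bases. Uniqueness is an exact match count of 30 or 50 bases on both strands of the genome. Summit assignment and array search were tested on simulated data, with summits placed in known windows and arrays planted in sequence of A and T. Units do not arise by chance in such sequence, so the array test bears only on finding planted arrays. No test was run, since 1 group allows none, and the spread is that between 2 replicates.

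The genes named were the 9 members, genes sharing their summits, the bound genes of 6 fixed lists or else the one of best rank, and the 5 genes of most similar rank; hsf-1, unc-23 and the rank neighbours were added after their values were seen. Members and lists were chosen with earlier results of these data known. The names hsp-16.11 and hsp-16.49 were not matched in the annotation, where hsp-16.1 and hsp-16.48 each name 2 genes. Alternatives were other lists, windows, starts, overlaps, rank orders and sequence windows. Python 3.11.15, numpy 2.4.6, pandas 2.3.3, matplotlib 3.10.9 and Biopython 1.88 were used.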

Additional observations from a re-analysis of the deposited data

How the results depend on the processing

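Of 22 alternatives, 13 were labelled as leaving a value the same and 9 as moving it. The margin differed between results. A count of 4 bound members against 5 was labelled the same, and a rank of 4 against 3 was labelled moved. The count of bound members, 5 in the main list, was 3 in the conservative list, 3 when each summit went only to the nearest start, and 3 to 4 with a single replicate. It was 4 when only peaks at or above the median signal were used and 5 with either other window, with interval overlap and with outermost starts. The rank of the F44E5 peak, 3, was 4 to 4 with a single replicate. The members' median rank, 1.44%, was 3.12% to 4.0% with a single replicate, where lists differ in length, and 0.965% by score. Matches in the F44E5 peak, 6, were 4 with 50 bp on each side of the summit and 4 when runs of 3 units were counted. They became 14 with 150 bp on each side of the summit, which takes in the arrays outside the peak. Of the 3 members with peaks in both replicates 1 was left, hsp-1, when overlap of 50% of both intervals was asked, which the narrow F44E5 peak of replicate 2 cannot meet. For the other moves the cause was not tested. No paired analysis was possible because the libraries form 1 group. Unknown depth limits what the absence of a peak shows.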

Other observations

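Among the 12 main-list peaks with an array of 5 or more alternating units within 75 bp of the summit, F44E5.4/F44E5.5 stood alone in sequence. All 122 runs of 30 bases around its summit occur once in the genome and it shared none with the other 11 peaks. Each of those 11 shared such runs with the 10 others, and at most 52.5% of their runs were unique. In 10 of them the sequence around the summit matched itself best when shifted by 40 bp, so that the arrays there are tandem copies. Their signals ran from 52.6 to 208, against 246 for F44E5.4/F44E5.5. Thresholded peaks overlapped 5 of the 11 in replicate 1 and 5 in replicate 2. One had its summit in the window of pck-2, at 166, one in that of ZK1053.2, at 60.4, and 9 near no protein-coding start.

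Across the genome 1514 arrays of 5 or more units were found, of which 61 (4.03%) overlapped a main-list peak, and these lay in 12 peaks. The main list covers 0.235% of the genome. Arrays in tandem copies are not independent of each other, so these shares are descriptions.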
